A study of Mus musculus with 8 samples.

Results

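The Slc25a genes encode the mitochondrial carriers, and 46 of them were measured among 22180 genes in mouse hearts. They were chosen by name, as every gene whose symbol in the array annotation is Slc25a followed by a number. Each of the 46 had 1 probe set with that symbol alone. A further probe set that names Slc25a35 together with a neighbouring gene was left out. The family was picked for description with the large rise of Slc25a33 after digoxin already known from these arrays. The values of the digoxin comparison are therefore a description of the family, and its count of changed genes supports nothing beyond itself.

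Mitochondrial carriers are small proteins of the inner membrane that exchange metabolites between the cytosol and the matrix. Through them pass ADP and ATP, phosphate, acylcarnitines, the intermediates of the malate-aspartate shuttle, amino acids, nucleotides, cofactors and iron. The beating heart makes nearly all of its ATP in mitochondria, so the ADP/ATP and phosphate carriers are among its most used transporters. A few members sit in other membranes, such as the peroxisome or the outer mitochondrial membrane.

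Hearts came from male wild-type mice of 8 to 10 weeks, labelled C57BL6JRj and bought as C57BL6/J, kept in alternating light and dark and fed chow. Digoxin, a cardiac glycoside that inhibits the Na/K-ATPase, was given intraperitoneally at 1 mg/kg at ZT5, where ZT0 is lights-on, and the hearts were taken at ZT9. The comparison group received the solvent alone, a mixture of ethanol, propylene glycol, citric acid and sodium phosphate, at the same times. There were 5 digoxin arrays and 3 vehicle arrays (Affymetrix Mouse Gene 2.0 ST), each taken as 1 mouse, and 1 more vehicle sample that the design text counts was not analysed here. Values are log2 expression, shifted by a constant within each probe set, and show differences between hearts. They do not show how much of a carrier was present, nor which of 2 carriers was the more abundant, and heart markers could not be checked for an absolute level. In whole hearts, fewer cells of a type and less RNA per cell cannot be told apart.

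Of the 46 carriers, 1 rose in limma at an adjusted p of 0.05 over all genes and none fell, against a background of 0.947% of all genes rising and 0.415% falling (1.36% in either direction). The gene that rose was Slc25a33, and 45 did not pass the test. At an unadjusted p of 0.05 there were 6 carriers, Slc25a33, Slc25a16, Slc25a15, Slc25a18, Slc25a45 and Slc25a13, which is 13% of the family against 12.3% of all genes. The median log2 change was 0.02 over the 46 carriers and -0.01 over all genes. In 43 of the 46, or 93.5%, the change was smaller than 0.2 on the log2 scale in either direction, and this held for 89.2% of all genes. For 44 of the 46 carriers the whole 95% interval of the change lay within 0.5 of 0, and this held for 20680 of the 22180 genes. The exceptions among the carriers were Slc25a33 and Slc25a16.

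**Figure D1:**
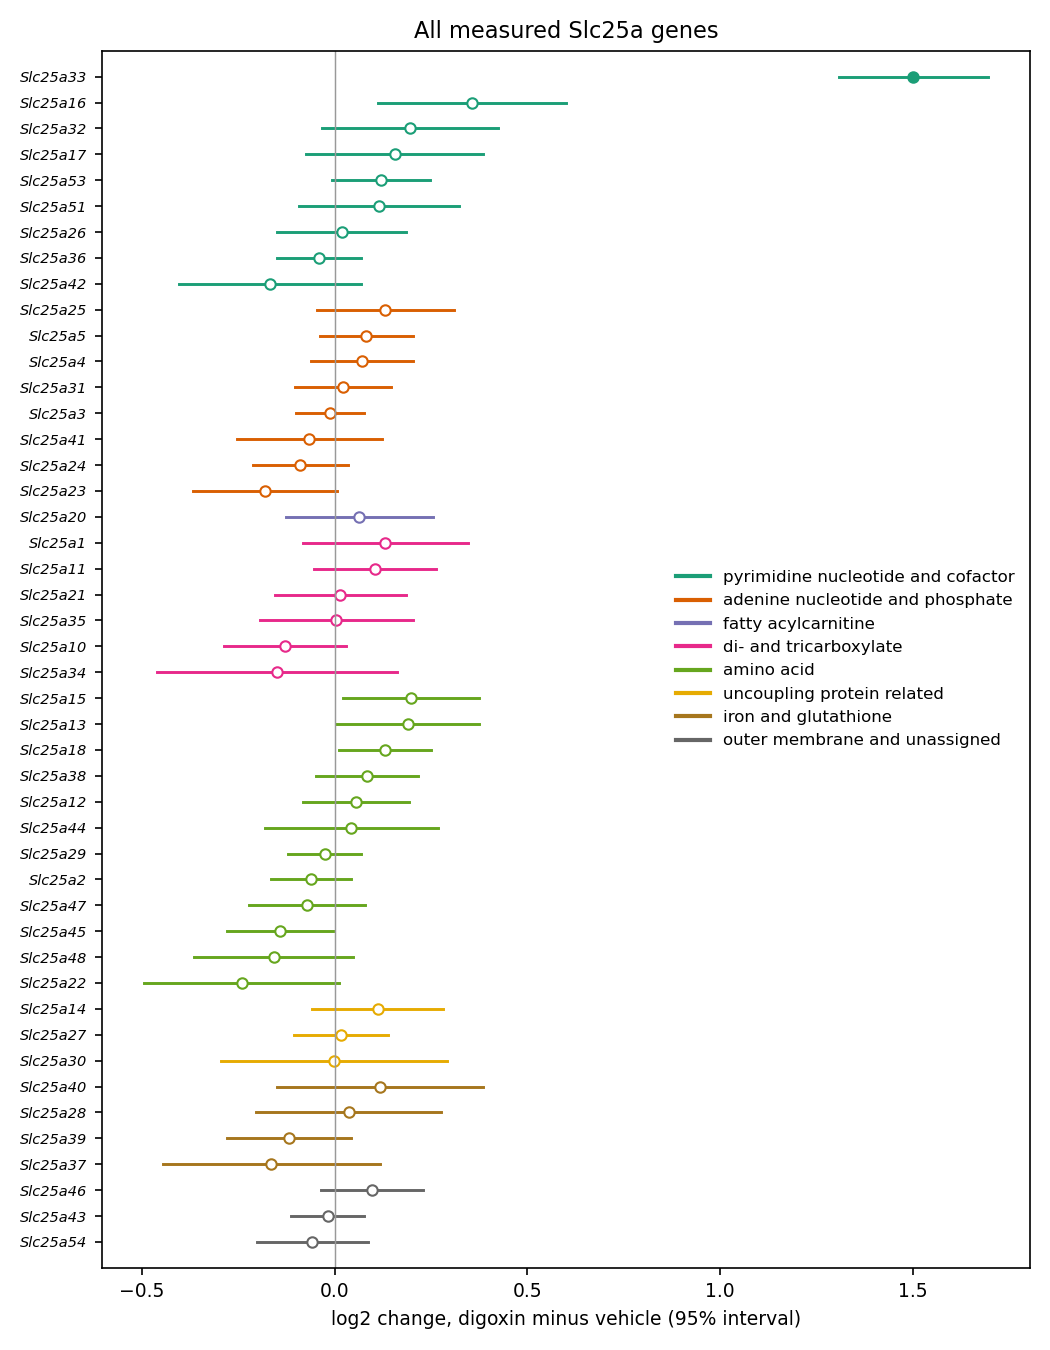
Log2 change, digoxin minus vehicle, of the 46 measured Slc25a genes, grouped by what they carry; points are the limma estimates, lines their 95% intervals (5 digoxin and 3 vehicle arrays), and the filled point is the gene with an adjusted p below 0.05. Slc25a33 stands at 1.501, and the other 45 lie between -0.24 and 0.36.

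Slc25a33 encodes a carrier of pyrimidine nucleotides, also known as PNC1, which brings pyrimidine nucleotides into the matrix. Its centred log2 values in vehicle hearts 1 to 3 were -0.40, -0.35 and -0.61. In digoxin hearts 1 to 5 they were 1.26, 0.99, 0.96, 1.01 and 1.01. All 5 digoxin hearts were above all 3 vehicle hearts, and 4 of the 5 were within a few hundredths of each other. The means were 1.05 ± 0.12 (SD, n = 5) and -0.46 ± 0.14 (SD, n = 3). The log2 change was 1.501 with an SE of 0.08, and the digoxin level was 2.83 times the vehicle level with a 95% interval of 2.48 to 3.23 times (adjusted p = 0.000103 in limma). It ranked 10 among the 22180 genes by the size of its log2 change. The change stayed between 1.42 and 1.55 when any single array was left out. The array numbers in the labels' description field run through the vehicle group before the digoxin group, so the order of the arrays and the treatment cannot be told apart.

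Slc25a36, the paralogue of Slc25a33 that also carries pyrimidine nucleotides (PNC2), did not pass the test. Its values were 0.04, 0.02 and -0.10 in vehicle hearts 1 to 3, and -0.10, 0.01, -0.08, -0.04 and -0.07 in digoxin hearts 1 to 5. The groups overlapped only through vehicle heart 3, which was nearly as low as the lowest digoxin heart (-0.0991 against -0.1026). The other vehicle hearts were above every digoxin heart, by a small gap (0.0176 against 0.0149 at the nearest). With all arrays the log2 change was -0.04 with a 95% interval of -0.15 to 0.07 (adjusted p = 0.775 in limma). Without vehicle replicate 3 it was -0.08 (adjusted p = 0.524 in limma). The interval of Slc25a33 began at 1.31, so the intervals of the paralogues did not meet. The difference between them was not tested, since the rise of Slc25a33 was known when the pair was chosen.

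The promoters of this pair are shown because one gene rose and the other did not. Each sequence covers 250 bases before to 50 bases after the start of the gene, from RefSeq on GRCm38.p6, written 5′ to 3′ along the gene, which lies on the minus strand in both cases. Capitals mark matches to the motifs searched.
Slc25a33, chr4:149774218-149774517: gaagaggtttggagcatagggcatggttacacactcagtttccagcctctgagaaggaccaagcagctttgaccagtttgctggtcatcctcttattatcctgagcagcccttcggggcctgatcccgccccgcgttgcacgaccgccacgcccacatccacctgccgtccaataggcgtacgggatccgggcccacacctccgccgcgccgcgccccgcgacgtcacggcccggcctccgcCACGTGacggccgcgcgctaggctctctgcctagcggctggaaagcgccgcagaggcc
Slc25a36, chr9:97110992-97111291: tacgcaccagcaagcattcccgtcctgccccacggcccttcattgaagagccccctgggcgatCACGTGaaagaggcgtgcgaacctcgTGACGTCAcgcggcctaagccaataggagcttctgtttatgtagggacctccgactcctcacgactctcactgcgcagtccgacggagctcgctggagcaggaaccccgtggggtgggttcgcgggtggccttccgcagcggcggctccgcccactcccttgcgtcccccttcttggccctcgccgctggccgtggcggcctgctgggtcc

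Both promoters held the E-box CACGTG, the element bound by CLOCK and BMAL1 and by MYC. In Slc25a33 it began 8 bases before the start and in Slc25a36 it began 187 bases before it. The Slc25a36 promoter also held an exact match to the cyclic AMP response element TGACGTCA. The Slc25a33 promoter held CGACGTCA, which differs from it at the first base. Only exact matches were counted, so this near match is not marked. Promoters of 36 of the 46 carriers were in the table, with 46 start sites in all. The E-box was in 8 of these 46 promoters (17.4%) and in 7.15% of 32851 mouse promoters of the same length. These 8 promoters belonged to 7 of the 36 carriers, since Slc25a14 was counted at more than 1 start site, with overlapping windows. The promoters are therefore not independent of each other. The carriers with an E-box were Slc25a1, Slc25a13, Slc25a14, Slc25a15, Slc25a31, Slc25a33 and Slc25a36, and 6 of these 7 did not pass the test. The median GC content was 59.3% in carrier promoters and 52.7% in all promoters, and it was 66% and 66.7% in the promoters printed. The other motifs, each searched on both strands, were AGAACA (1 arm of the glucocorticoid receptor element), the full palindromic glucocorticoid receptor element, AGGTCA (the core bound by many nuclear receptors), GTAAACA (forkhead factors) and the NRF1 palindrome. AGAACA was in 4 of the 46 carrier promoters (8.7%) against 19% of all. AGGTCA was in 4 (8.7%) against 16.3%, and TGACGTCA in 2 (4.35%) against 1.79%. These counts are small and the differences were not tested. The full glucocorticoid receptor element, GTAAACA and the NRF1 palindrome were in none of the 46 carrier promoters, and in 0.00913%, 3.65% and 0.971% of all. AGAACA lies within the full glucocorticoid receptor element, so any match to the longer motif is also one to the shorter.

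The genes on either side of Slc25a33, which the naming rule did not cover, were also looked at. Tmem201 had a log2 change of 0.07 (95% interval -0.14 to 0.28). Spsb1 stood at 0.30 (95% interval 0.11 to 0.48, adjusted p = 0.17), and neither passed in limma.

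**Figure D2:**
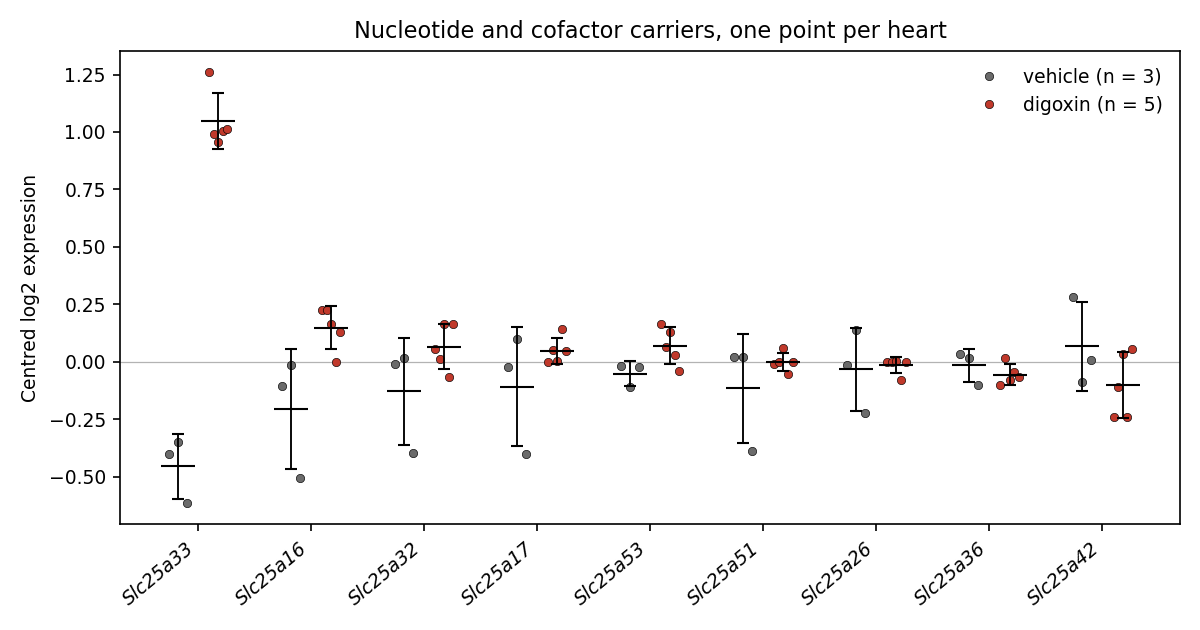
Centred log2 expression of the 9 measured carriers grouped as nucleotide and cofactor carriers in each heart, with 3 vehicle hearts in grey and 5 digoxin hearts in red; horizontal bars are means and error bars SDs. Digoxin hearts are above all vehicle hearts for Slc25a33 and Slc25a16, and the groups overlap for the other genes.

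Among the carriers of other nucleotides and cofactors, Slc25a16, linked to coenzyme A in mitochondria, had the second largest change. Its values were -0.11, -0.01 and -0.50 in vehicle hearts 1 to 3, and 0.22, 0.23, 0.16, 0.00 and 0.13 in digoxin hearts 1 to 5. The groups did not overlap, but digoxin heart 4 and vehicle heart 2 nearly met, and vehicle heart 3 was far below the other vehicle hearts. The log2 change was 0.36 with an SE of 0.11, and it did not pass the test (adjusted p = 0.204 in limma). Without vehicle replicate 3 it was 0.21 (adjusted p = 0.231). Slc25a33 and Slc25a16 were the 2 carriers without overlap between the groups, both with digoxin above. Among all genes 8.16% had groups without overlap, 4.4% with digoxin above and 3.76% with digoxin below.

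Slc25a17, a carrier of the peroxisome that moves cofactors such as coenzyme A, was among the 3 carriers with the widest spread between vehicle hearts. Its values there were -0.02, 0.10 and -0.40, and in digoxin hearts 0.00, 0.05, 0.00, 0.14 and 0.05. Vehicle heart 3 alone stood apart, and the change of 0.16 with all arrays was 0.01 without it. The folate and FAD carrier Slc25a32 stood at 0.20 and at 0.06 without that array. The NAD carrier Slc25a51 stood at 0.12 and at -0.02 without it. Slc25a53, whose cargo is not settled, stood at 0.12, the S-adenosylmethionine carrier Slc25a26 at 0.02 and the coenzyme A carrier Slc25a42 at -0.17. None of these 6 passed, and their adjusted p values in limma lay between 0.432 and 0.947.

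The carriers that supply ADP and phosphate for ATP synthesis differed little between the groups. Slc25a4, the ADP/ATP carrier of heart and muscle (ANT1), had values of 0.06, -0.02 and -0.20 in vehicle hearts 1 to 3, and 0.03, 0.05, 0.00, 0.01 and 0.00 in digoxin hearts 1 to 5. The digoxin hearts lay within a narrow band inside the spread of the vehicle hearts. Its log2 change was 0.07 (95% interval -0.06 to 0.20), and it was -0.0019 without vehicle replicate 3. Slc25a5, the more widely expressed ADP/ATP carrier (ANT2), had values of -0.15, -0.03 and -0.06 in vehicle hearts, and 0.01, 0.00, 0.01, -0.10 and 0.10 in digoxin hearts. Digoxin heart 4 fell among the vehicle hearts and the other digoxin hearts were above them, with a change of 0.08 (95% interval -0.04 to 0.20). Slc25a3, the phosphate carrier, had values of 0.01, -0.01 and 0.01 in vehicle hearts, and 0.01, 0.02, 0.00, -0.07 and 0.00 in digoxin hearts. It had the narrowest interval of the family, -0.10 to 0.08 around a change of -0.01, which leaves room for a level between 0.933 and 1.05 times that of vehicle hearts.

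Slc25a31, the ADP/ATP carrier best known from germ cells, stood at 0.02. The calcium-regulated carriers that exchange ATP-Mg for phosphate, and so set the adenine nucleotide pool of the matrix, went both ways. Slc25a25 stood at 0.13, Slc25a24 at -0.09, Slc25a23 at -0.18 and the related Slc25a41 at -0.07. None of the 8 carriers in this group passed, and their median change was 0.01. The change of Slc25a23 was -0.25 without vehicle replicate 3, with an adjusted p of 0.246 in limma.

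Slc25a20 exchanges acylcarnitine for carnitine, the step by which long-chain fatty acids enter the matrix. Its values were 0.04, -0.11 and -0.17 in vehicle hearts 1 to 3, and -0.05, 0.14, 0.00, -0.22 and 0.05 in digoxin hearts 1 to 5. The lowest and the highest heart were both from the digoxin group. The log2 change was 0.06 (95% interval -0.13 to 0.26).

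Of the carriers of di- and tricarboxylates, none of 6 passed and the median change was 0.01. Slc25a11, the oxoglutarate carrier and one arm of the malate-aspartate shuttle, had values of -0.02, -0.12 and -0.11 in vehicle hearts 1 to 3, and 0.08, 0.10, 0.00, -0.17 and 0.10 in digoxin hearts 1 to 5. Digoxin heart 4 was below every vehicle heart, while the other 4 were above them all. The change was 0.10 (95% interval -0.05 to 0.26), and 0.15 without digoxin replicate 4 (adjusted p = 0.261 in limma). The citrate carrier Slc25a1 stood at 0.13, the oxodicarboxylate carrier Slc25a21 at 0.01, the dicarboxylate carrier Slc25a10 at -0.13, and the orphan carriers Slc25a35 and Slc25a34 at 0.0049 and -0.15. Slc25a34 had the widest interval of the family, -0.46 to 0.16.

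Of 12 amino acid carriers and their relatives, none passed, 6 had higher means and 6 had lower means in digoxin hearts. Slc25a12, the aspartate/glutamate carrier aralar and the other arm of the malate-aspartate shuttle, had values of -0.03, 0.02 and -0.04 in vehicle hearts 1 to 3, and 0.00, 0.13, 0.08, -0.11 and 0.10 in digoxin hearts 1 to 5. Digoxin heart 4 was again the lowest of the 8, and the change was 0.06 (95% interval -0.08 to 0.19). Its paralogue Slc25a13, known as citrin, stood at 0.19 (unadjusted p = 0.0467, adjusted p = 0.396 in limma), and at 0.12 without vehicle replicate 3.

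Slc25a15, the ornithine carrier of the urea cycle, had values of -0.08, -0.18 and -0.23 in vehicle hearts, and 0.01, 0.00, 0.05, -0.13 and 0.23 in digoxin hearts. Only digoxin heart 4 reached into the vehicle range. The change was 0.20 with an SE of 0.08 (adjusted p = 0.344 in limma). The other ornithine carrier, Slc25a2, stood at -0.06. Slc25a18, a glutamate carrier, had values of -0.07, -0.04 and 0.10 in vehicle hearts, and 0.15, 0.07, 0.19, 0.11 and 0.11 in digoxin hearts. Vehicle heart 3 was above digoxin heart 2 and the groups overlapped there. The change was 0.13 with an SE of 0.05 (adjusted p = 0.361 in limma), and 0.18 without vehicle replicate 3 (adjusted p = 0.111).

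The second glutamate carrier, Slc25a22, stood at -0.24 (95% interval -0.49 to 0.01), the lowest value in the family, and did not pass (adjusted p = 0.431 in limma). Slc25a38, which supplies glycine for haem synthesis, stood at 0.08, the branched-chain amino acid carrier Slc25a44 at 0.04 and the basic amino acid carrier Slc25a29 at -0.03. The related carriers Slc25a45, Slc25a47 and Slc25a48 stood at -0.14, -0.07 and -0.16.

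Of the 3 relatives of the uncoupling proteins, Slc25a14 stood at 0.11, Slc25a27 at 0.02 and Slc25a30 at -0.0016. All 3 had their lowest value in vehicle heart 3. Slc25a30 had the widest spread of the family between vehicle hearts, with 0.09, 0.26 and -0.38, against 0.00, -0.10, 0.00, -0.08 and 0.11 in digoxin hearts. The digoxin hearts lay between the extremes of the vehicle hearts. Without vehicle replicate 3 its change was -0.19 (adjusted p = 0.31 in limma), and that of Slc25a14 was 0.0045.

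The iron carriers of the inner membrane, mitoferrin 1 (Slc25a37) and mitoferrin 2 (Slc25a28), stood at -0.16 and 0.04. Of the glutathione carriers, Slc25a39 stood at -0.12 and Slc25a40 at 0.12. Slc25a40 had values of 0.21, -0.11 and -0.43 in vehicle hearts 1 to 3, and 0.00, -0.01, 0.00, 0.00 and 0.05 in digoxin hearts 1 to 5. The vehicle hearts were spread widely around the digoxin group, in which hearts 1, 3 and 4 shared the value 0.0000. Whether such equal values were measured or came from the processing was not tested. Without vehicle replicate 3 the change was -0.04. Slc25a46, a protein of the outer membrane linked to mitochondrial dynamics, stood at 0.10, Slc25a43 at -0.02 and Slc25a54 at -0.06. None of these 7 passed.

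Many of these small differences moved with 1 vehicle heart. Vehicle replicate 3 held the lowest of the 8 values in 18 of the 46 carriers (39.1%), and in 25.7% of all genes. It held the highest value in 4 carriers (8.7%) and in 28.8% of all genes. Over the 45 carriers other than Slc25a33, the median value was -0.06 on that array and -0.05 on digoxin replicate 4, and between 0.00 and 0.01 on the other 6. With all arrays 27 of the 46 carriers (58.7%) had higher means in digoxin hearts, against 44.4% of all genes. Without vehicle replicate 3 it was 19 of 46 (41.3%), against 48.2%, and the median change of the family went from 0.02 to -0.01. The family median moved further, to 0.08, when vehicle replicate 2 was left out instead. Over all probe sets vehicle replicate 3 also had the widest interquartile range, 0.216, while the other 7 arrays had 0.0792 to 0.115. Slc25a33 was lowest there too, and its change without that array was 1.42 (adjusted p = 0.000392 in limma).

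**Figure D3:**
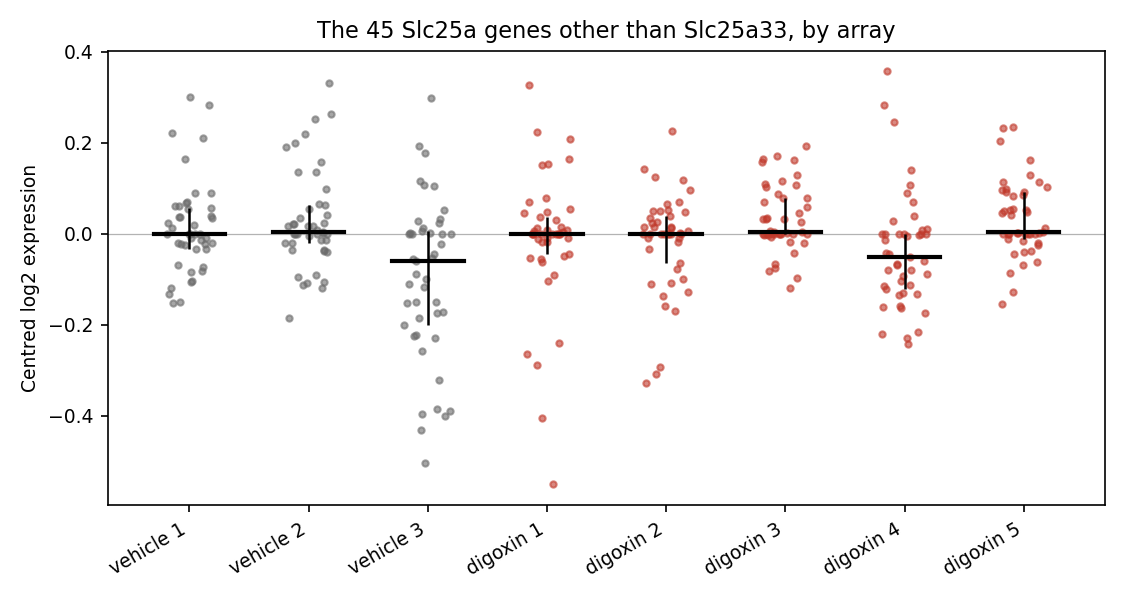
Centred log2 expression of the 45 Slc25a genes other than Slc25a33 on each array, with vehicle arrays in grey and digoxin arrays in red; each point is 1 gene, thick bars are medians and thin lines run between the quartiles. Vehicle 3 and digoxin 4 have the lowest medians, at -0.06 and -0.05, and vehicle 3 has the widest spread.

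Genes that work beside the carriers were read from 5 lists, and no member of any list passed in limma. Of all genes 1.36% passed, so short lists without a passing gene are not unusual. Of the family members that go by other symbols, 4 were measured. Mtch2, an outer membrane insertase, stood at 0.13 and its relative Mtch1 at -0.11, while the uncoupling protein genes Ucp1 and Ucp3 stood at 0.05 and -0.17. The 12 measured genes of the route that brings carriers to the inner membrane, with the TIM22 complex and its chaperones, had a median change of 0.02. There the small chaperone gene Timm13 (-0.13) and the TIM22 subunit gene Agk (0.13) had the smallest p. For 18 genes of other mitochondrial transport, among them those of pyruvate, calcium and the outer membrane pores, the median was 0.02. The sodium/calcium exchanger gene Slc8b1 stood at -0.14 and the sideroflexin gene Sfxn5 at -0.13. For 13 enzymes of the shuttles the median was 0.0038, with the aspartate aminotransferase gene Got1 at 0.19 and the carnitine palmitoyltransferase gene Cpt1a at -0.21.

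For 11 genes that supply pyrimidine nucleotides and maintain mitochondrial DNA, the median was 0.05. In 8 of the 11 (72.7%) the lowest value was on vehicle replicate 3, against 25.7% of all genes. Changes without that array are not given for these genes. Tk2, the mitochondrial thymidine kinase that makes pyrimidine nucleotides inside the matrix, had values of 0.08, -0.05 and -0.45 in vehicle hearts 1 to 3, and 0.20, 0.25, 0.21, 0.45 and 0.33 in digoxin hearts 1 to 5. All digoxin hearts were above all vehicle hearts, with vehicle heart 3 far below the rest. Groups without overlap were found in 8.16% of all genes, in either direction. The log2 change was 0.42 with an SE of 0.11, and it did not pass the test (adjusted p = 0.15 in limma). Tfb2m, a mitochondrial transcription factor gene, stood at 0.18 (adjusted p = 0.32).

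The mix of cells in the samples was read from marker lists, and no marker passed in limma, where 1.36% of all genes did. The mean over 6 cardiomyocyte markers lay between -0.04 and 0.02 in vehicle hearts and between -0.01 and 0.06 in digoxin hearts. That over 6 atrial markers ran from 0.27 to 2.43 in vehicle hearts and from -0.45 to 1.88 in digoxin hearts, so the hearts differed widely in atrial RNA within both groups. All 6 atrial markers had lower means in digoxin hearts, with log2 changes from -1.47 to -0.33 and a median of -0.92, and none of them passed. The mean over 6 adipocyte markers, which include the brown fat genes Ucp1 and Cidea, lay between -0.08 and 0.01 in vehicle hearts and between -0.08 and 0.35 in digoxin hearts. The lists for endothelial cells (-0.16 to 0.05 in vehicle and -0.14 to -0.01 in digoxin hearts), fibroblasts (-0.04 to 0.20 and -0.08 to 0.10) and macrophages (-0.08 to 0.23 and -0.15 to 0.14) also overlapped between the groups. For red blood cells 1 of 6 markers was measured, Slc4a1, at -0.21. A list mean can hide single markers that move in opposite directions. Of the 6 endothelial markers, 2 had groups without overlap, 1 with digoxin above and 1 with digoxin below. The fibroblast and adipocyte lists each held 1 with digoxin above, and the macrophage list 1 with digoxin below. Among all genes 8.16% had groups without overlap. The part of the cell mix in the change of Slc25a33 was not tested.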

How the data were processed

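The authors applied Robust Multi-array Average normalization through Galaxy modules, per the labels' design text. The submitters' processing notes list limma without a version. The deposited values are taken as log2 and are centred for each probe set on an unstated reference, which cancels in differences between arrays. In the platform annotation 23521 of 34351 probe sets carry exactly 1 symbol, and these were averaged to 22180 genes.

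The test was limma's moderated fit of digoxin against vehicle (version 3.58.1, R 4.3.3, two-sided, Benjamini-Hochberg over all genes, threshold 0.05, 6 residual and 2.75 prior degrees of freedom). The same fit was tested on simulated data. The labels number the samples without naming the mouse behind each, so a p-value reflects only how these samples varied, which may be technical. No pair of arrays was identical.

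The members and all lists were chosen with earlier results of these data known. Every carrier is named. Values in every heart are given for carriers past the test, the next 3 by p, the 3 with the widest vehicle spread, 6 carriers of cardiac energy supply, and the paralogue of Slc25a33. From each list of other genes the members past the test, or else the 2 of smallest p, are named, and beside these Ucp1, Ucp3 and the genes next to Slc25a33. Of marker lists only members past the test were to be named. Protein sequences were not used here. Alternatives were quantile normalization, array weights, robust variances, the choice of probe set, stricter thresholds, a block for the replicate number, and leaving out arrays.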

Additional observations from a re-analysis of the deposited data

Results flagged for a closer look

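In 8 of the 46 carriers 1 of the 5 digoxin hearts stood far from the other 4, by a gap of more than 0.71 of the group's range (Dixon's 95% critical value), where about 1 group in 20 is flagged by chance. That is 17.4% of the carriers, and by the same measure 9.28% of all 22180 genes were flagged, so the nominal rate does not hold on these centred values. Slc25a33 itself was at 1.26 in digoxin replicate 1, against 0.96 to 1.01 in the others, and the flagged heart lay further from the vehicle hearts. Digoxin replicate 1 was also high for the ATP-Mg carrier Slc25a25, at 0.33 against 0.00 to 0.08. Digoxin replicate 4 was low for the phosphate carrier Slc25a3 (-0.07 against 0.00 to 0.02), for Slc25a46 (-0.16 against -0.01 to 0.04) and for Slc25a26 (-0.08 against 0.00 to 0.00). Digoxin replicate 5 was high for Slc25a21 (0.24 against -0.04 to 0.04) and for Slc25a40 (0.05 against -0.01 to 0.00). Digoxin replicate 3 was low for Slc25a27, at -0.07 against 0.00 in the other 4. In Slc25a26, Slc25a27 and Slc25a40 the other 4 hearts lay in a narrow range around 0. For Slc25a27 all 4 were 0.0000, and for Slc25a40 hearts 1, 3 and 4 were. A value of exactly 0 was present in 21739 of 34351 probe sets. Equal values narrow the range of a group, so these flags need not mark an unusual heart. Groups of 3, such as the vehicle hearts, were not tested in this way.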

How the results depend on the processing

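Slc25a33 passed and kept its direction in all 17 alternatives run, with a log2 change between 1.42 and 1.55, and no other carrier passed in any of them. Not all of these could alter the log2 change of a carrier. Each carrier had 1 probe set, so the choice of probe set left its log2 change as it was. Robust variances and stricter thresholds did so too, and stricter thresholds could not add a carrier. The adjusted p of Slc25a33 in limma lay between 3.8e-05 with array weights and 0.026 with the replicate block. With 1 array left out it lay between 0.00014 and 0.0013. Of the 46 carriers, 13 changed sign when single arrays were left out, all of them genes that did not pass. The median change of the family, 0.02, lay between -0.0129 and 0.0805 with 1 array left out, and it was 0.0067 with quantile normalization and -0.0024 with array weights. Over all genes, 210 rose and 92 fell. With 1 array left out the rises numbered between 123 and 185 and the falls between 29 and 189, lowest when vehicle replicate 2 was left out and highest when vehicle replicate 3 was. At an adjusted p of 0.01 there were 95 and 23, at a change of at least 1.5 times 87 and 20, with quantile normalization 314 and 113, and with array weights 294 and 320. With both digoxin replicate 4 and vehicle replicate 3 removed, chosen after seeing the data, 218 rose and 282 fell, and Slc25a33 stood at 1.43. Titles share the replicate numbers 1 to 3 between the groups. Same-numbered arrays did not deviate together (correlations of -0.197, -0.0177 and 0.0236), so the numbers are not taken as pairs. With the replicate block 11 genes rose and 1 fell, and Slc25a33, at 1.53, was among the genes that rose. That fit draws the change from replicates 1 to 3 alone, since digoxin replicates 4 and 5 have no vehicle array of the same number. It also has fewer residual degrees of freedom, so its counts are not comparable with those of the main fit. A filter on dim genes was not run, since centred values hold no absolute level. Precision is limited by having 5 and 3 arrays.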

Other observations

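Slc25a34, Slc25a37 and Slc25a22 had the widest spread of the family among the digoxin hearts, with ranges of 0.666, 0.575 and 0.451. The glutamate carrier Slc25a22 was at -0.40, -0.29, 0.00, -0.22 and 0.05 in digoxin hearts 1 to 5, against 0.22, -0.02 and 0.00 in vehicle hearts 1 to 3. The orphan carrier Slc25a34 was at -0.55, -0.31, 0.12, -0.13 and 0.00, against 0.04, 0.00 and -0.12. The uncoupling protein gene Ucp3 was at -0.75, -0.65, -0.10, -0.47 and 0.00, against 0.34, -0.51 and -0.49. In Slc25a22, Slc25a34 and Ucp3 digoxin hearts 1 and 2 were the lowest of the 8. These genes were picked after their values were seen, and the likeness was not tested.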
